A study of Mus musculus with 93 samples.

Results

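The 8 mouse genes described here, whose human orthologs carry common variants associated with fatty liver disease, were followed through the livers of 7 inbred strains fed a control diet (CD) or a Western diet (WD). They are Pnpla3, Tm6sf2, Mboat7, Hsd17b13, Gckr, Mertk, Trib1, and Ppp1r3b, and they were found by matching these symbols to the gene identifiers of the count table, which gave 8 of 53465 rows. Liver RNA was sequenced from 93 male mice housed at thermoneutrality, 30°C, in which the animals spend little energy on keeping warm. The strains were C57BL/6J, DBA/2J, A/J, 129S1/SvImJ, WSB/EiJ, CAST/EiJ, and PWK/PhJ, all inbred. Mice moved to thermoneutrality at 6 wk of age, started the diets at 7 wk, stayed on them for 17 wk, and were killed at 24 wk. WD supplied 40% of its energy as fat and 43% as carbohydrate, and CD 10% and 73%, with 17% as protein in both. The groups on CD and on WD held 8 and 8 C57BL/6J, 6 and 7 DBA/2J, 5 and 6 A/J, 7 and 6 129S1/SvImJ, 6 and 6 WSB/EiJ, 7 and 8 CAST/EiJ, and 6 and 7 PWK/PhJ mice. The question was how the level of each gene depends on strain and how far WD moves it in each strain.

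The 8 genes act at different steps of hepatic lipid and carbohydrate handling. Pnpla3 and Hsd17b13 encode proteins of the lipid droplet, Tm6sf2 and Mboat7 encode membrane proteins that act in lipoprotein lipidation and phospholipid remodeling, and Gckr and Ppp1r3b encode regulators of hepatic glucose use and of glycogen synthesis. Trib1 encodes a pseudokinase that directs transcription factors of the C/EBP family to degradation, and Mertk encodes a receptor tyrosine kinase with which macrophages take up dying cells. The human associations rest on alleles, several of which change the protein, so they concern more than the amount of transcript that was measured here.

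Reads on genes ranged from 40020424 to 49894856 per mouse, with a median of 46618609. All reads were mapped to the C57BL/6J genome, and the share of unmapped reads ranged from 8.93% to 14.8% in CAST/EiJ and from 1.66% to 3.87% in C57BL/6J. In PWK/PhJ this share was 2.2% to 4.2% on CD and 5.5% to 8.7% on WD, without overlap. In each of the other strains the ranges of the diets overlapped. The part of mapping in the strain and diet differences was not tested. Nothing in the labels marks samples as technical repeats, no pair of libraries held identical counts, and each strain came from 2 cohorts, CAST/EiJ from 3. WSB/EiJ mice came from cohorts 6 and 7, which held no other strain, so WSB/EiJ and its cohorts cannot be told apart. A C57BL/6J mouse on CD (replicate 2) stood apart, with a median correlation of 0.950 with the other mice of its group, where the next lowest value among the 93 mice was 0.976. Another 4 mice had an RNA integrity number (RIN) under 8. None of the 10 hepatocyte markers was at 0 in any group, and their summed level ranged from 73440 to 221300 CPM (counts scaled to a common library total) across the mice.

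All 8 genes passed the filter on low counts, so all were among the 19110 genes tested. Levels are given as CPM, with library totals adjusted by TMM factors, and levels of different genes are compared per kilobase (kb) of exon. By the median over all mice, Hsd17b13 had the highest level, 316 CPM per kb, followed by Gckr with 50.2, Ppp1r3b with 22.7, Tm6sf2 with 17.2, Trib1 with 10.0, Mertk with 7.37, Mboat7 with 5.45, and Pnpla3 with 2.91 CPM per kb. With the shorter exon length of the basic annotation, which leaves out retained introns, Mboat7 had 15.8 CPM per kb and stood above Trib1 in the order. Hsd17b13 lay above 99.2% of the genes tested in median CPM, and Pnpla3 above 49.7%. Counts of Pnpla3 reached from 4 to 10975 reads in single mice, whereas the other 7 genes had at least 534 reads in every mouse.

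**Figure D1:**
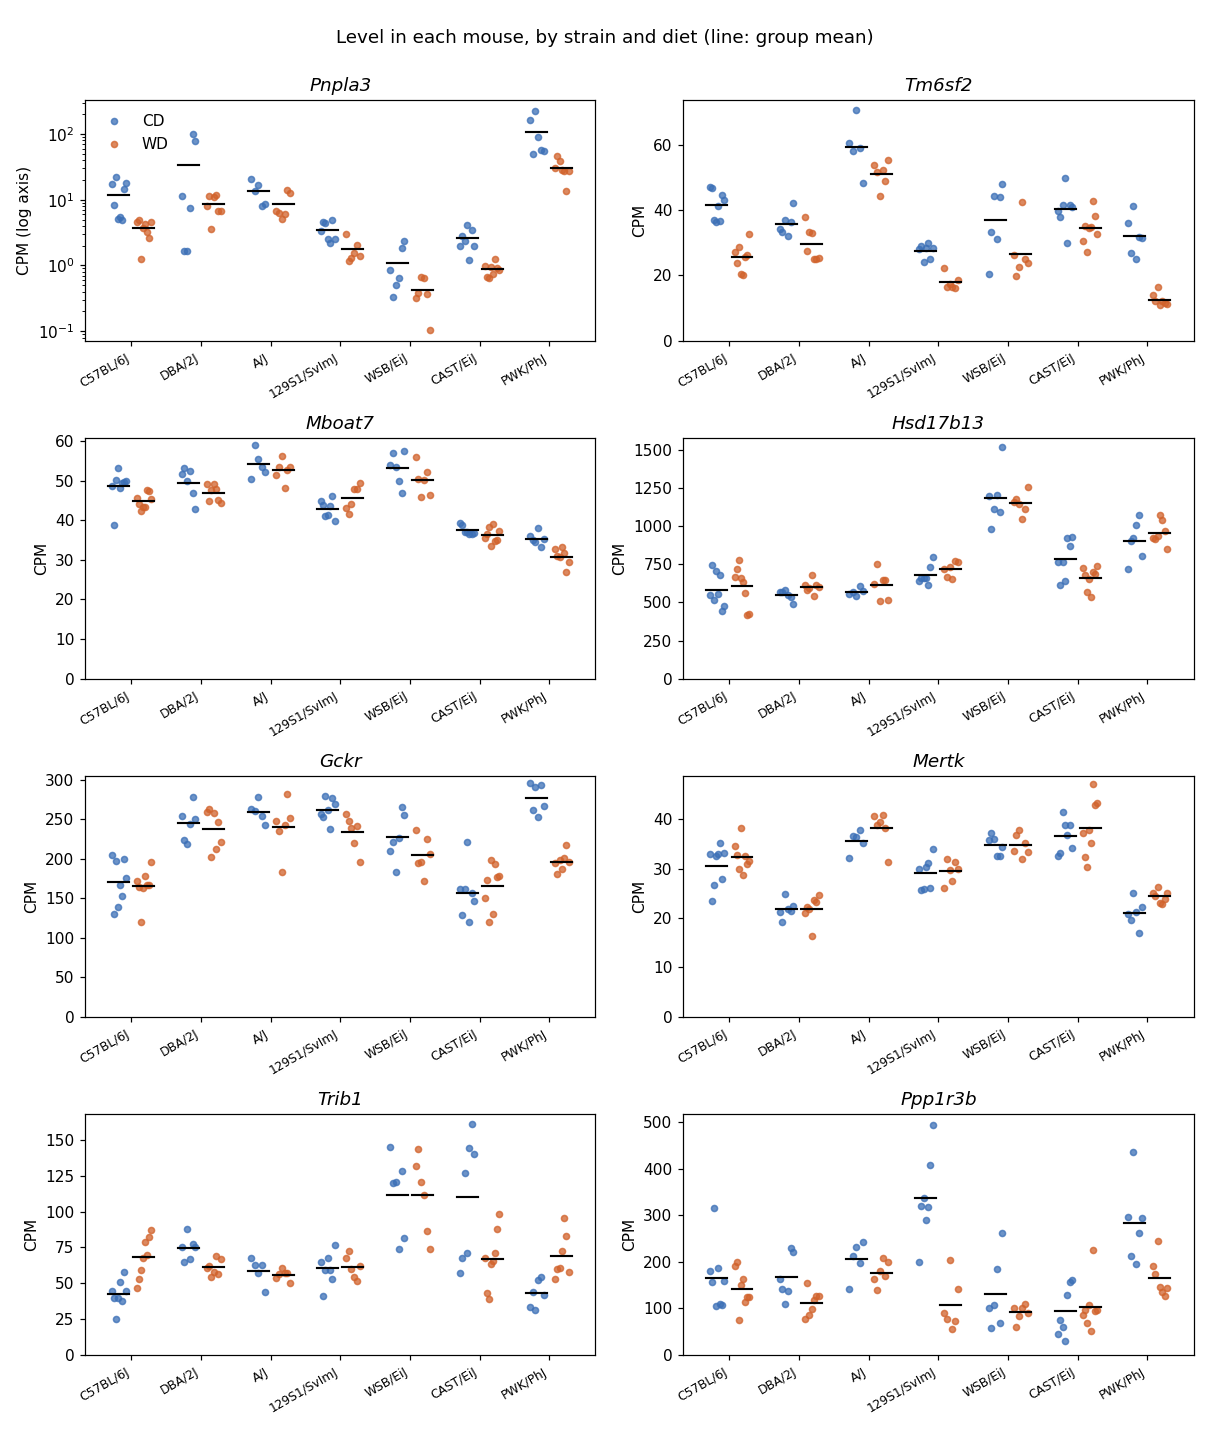
CPM of each gene in each mouse (y axis; logarithmic for Pnpla3) by strain (x axis), with CD in blue, WD in orange, and a line at the group mean. Pnpla3 spans 0.105 to 221 CPM and its 8 C57BL/6J mice on WD all lie below the 8 on CD, whereas the Hsd17b13 points of both diets overlap in every strain.

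WD changed the transcript of 5 of the 8 genes when the 7 strains were averaged with equal weight, and all 5 were lower on WD. At an adjusted p below 0.05 with limma-voom, the share of all genes called in this comparison was 51.6%, and the share called as lower on WD was 24.5%. The mean log2 fold change was −1.15 ± 0.30 (SE; adjusted p = 0.00072) for Pnpla3, −0.55 ± 0.05 (adjusted p = 1.4e-16) for Tm6sf2, and −0.50 ± 0.11 (adjusted p = 7.4e-05) for Ppp1r3b. Gckr and Mboat7 were lower by small amounts, with log2 fold changes of −0.13 ± 0.04 (adjusted p = 0.0027) and −0.07 ± 0.02 (adjusted p = 0.0031). Mertk (0.07 ± 0.03, adjusted p = 0.052), Trib1 (0.06 ± 0.07, adjusted p = 0.52), and Hsd17b13 (0.03 ± 0.04, adjusted p = 0.63) did not pass. Mertk passed in 9 of 15 alternatives, among them edgeR (0.07, adjusted p = 0.0498), DESeq2 (0.08, adjusted p = 0.033), and cohort within strain (0.09, adjusted p = 0.012). The median of the 8 was −0.10, beside 0.01 over all genes. With upper-quartile normalization, Mboat7 no longer passed (−0.04, adjusted p = 0.055).

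Within strains, the number of the 8 genes called was highest in PWK/PhJ, where 7 passed and only Hsd17b13 did not. The share of all genes called there was 29.6%, and 14.5% were called as lower on WD, the direction of 5 of the 7. In C57BL/6J, 3 of the 8 passed (26.2% of all genes), in 129S1/SvImJ 2 (28.0%), in CAST/EiJ 1 (19.5%), in WSB/EiJ 1 (8.94%), in DBA/2J 0 (18.0%), and in A/J 0 (9.03%). In DBA/2J, edgeR and DESeq2 each called 1 of the 8 and a separate fit of this strain 2. At an unadjusted p below 0.05, limma-voom had 1 in DBA/2J, Tm6sf2. In A/J, edgeR and DESeq2 also called 0, and limma-voom had 0 at an unadjusted p below 0.05. The diet effect itself differed between strains for 5 of the 8 by limma's F test over the 7 strains, beside 37.5% of all genes. These were Tm6sf2 (adjusted p = 3.5e-06), Trib1 (2.8e-05), Ppp1r3b (0.0019), Gckr (0.024), and Mboat7 (0.046). For Pnpla3 (0.66), Mertk (0.60), and Hsd17b13 (0.23) the test did not pass.

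**Figure D2:**
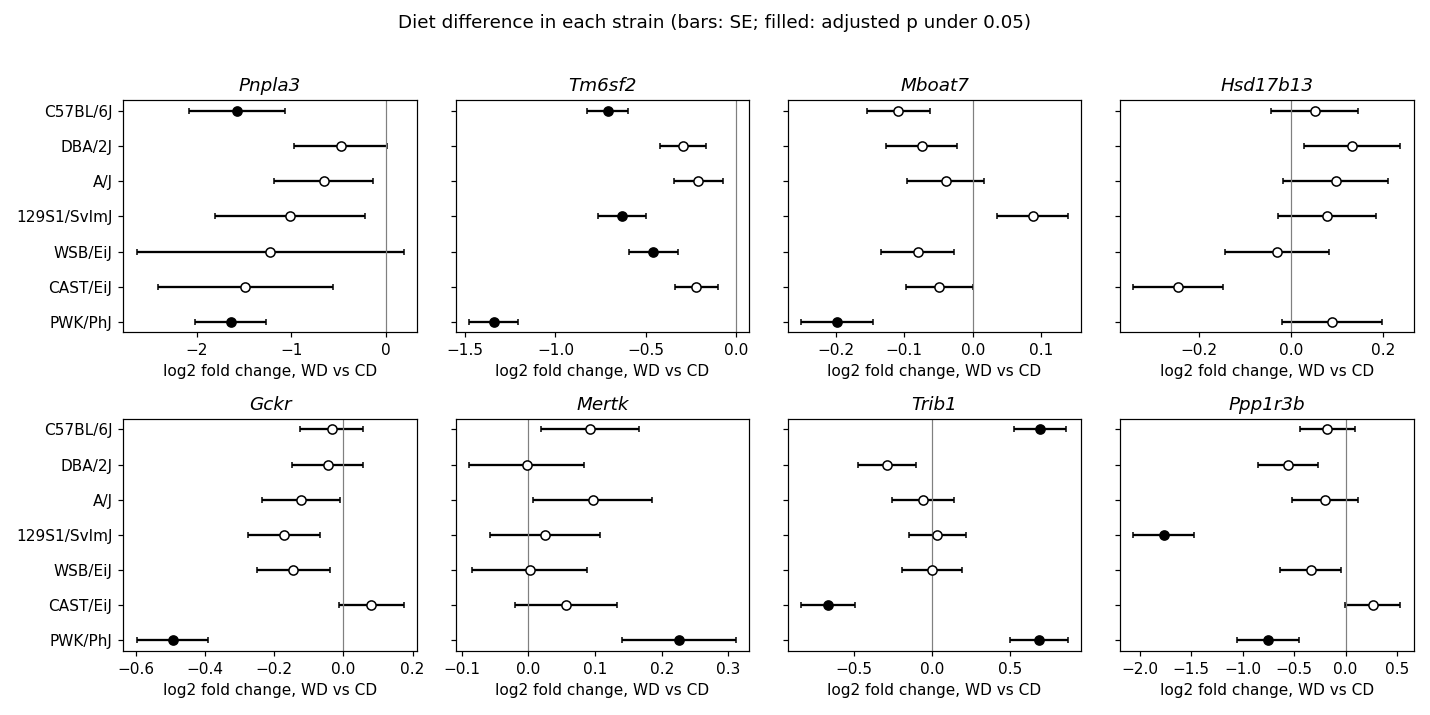
Log2 fold change of WD against CD (x axis) in each strain (y axis) from limma-voom, with bars of 1 SE and filled points where the adjusted p was below 0.05. Points of Pnpla3 and Tm6sf2 lie below 0 in all 7 strains, Trib1 lies at 0.69 in C57BL/6J and PWK/PhJ and at −0.67 in CAST/EiJ, and Ppp1r3b is lowest in 129S1/SvImJ at −1.77.

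Pnpla3, patatin-like phospholipase domain-containing 3, encodes a lipid droplet protein with lipase and transacylase activity, and its transcription is known to follow the lipogenic transcription factors. The gene lies at chr15:84167837-84187236 on the plus strand (GRCm38), and its exons share 105 bases with the noncoding gene Gm49513 on the same strand, 6.78% of their length. Gm49513 has no row in the count table. The level of Pnpla3 on CD varied more between strains than that of any of the other 7 genes, with a 98.1-fold range of strain means. In PWK/PhJ on CD the 6 mice had a lowest level of 50.2, a median of 73.5, and a highest of 221 CPM, and the 7 on WD had 13.6, 28.5, and 45.6 CPM. In C57BL/6J the values were 5.00, 11.5, and 21.8 CPM on CD and 1.26, 3.98, and 4.94 CPM on WD. In neither strain did the diets overlap, and the log2 fold change was −1.64 ± 0.37 (adjusted p = 0.00033) in PWK/PhJ and −1.57 ± 0.51 (adjusted p = 0.015) in C57BL/6J.

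Errors of Pnpla3 were wider at the low levels of CAST/EiJ, 129S1/SvImJ, and WSB/EiJ. In CAST/EiJ the lowest, median, and highest values were 1.21, 2.39, and 4.16 CPM on CD and 0.639, 0.889, and 1.27 CPM on WD, and 7 of the 8 mice on WD lay below every mouse on CD. The log2 fold change was −1.48 ± 0.92 (adjusted p = 0.28), and it passed with edgeR (−1.55, adjusted p = 0.023), with DESeq2 (−1.56, adjusted p = 0.0047), and with a separate fit of the strain (−1.48, adjusted p = 0.0014). In 129S1/SvImJ values of 2.19, 3.35, and 4.88 CPM on CD stood against 1.18, 1.49, and 3.06 CPM on WD, with 5 of the 6 mice on WD below every mouse on CD. Here the log2 fold change of −1.01 ± 0.79 (adjusted p = 0.36) passed with the separate fit alone (−0.99, adjusted p = 0.0048). WSB/EiJ had the lowest levels, with a median of 0.749 CPM on CD and 0.376 CPM on WD, and its log2 fold change of −1.22 ± 1.41 did not pass (adjusted p = 0.69). The 5 A/J mice on CD had 20.4, 13.4, 16.7, 7.99, and 8.56 CPM and the 6 on WD between 5.05 and 14.1 CPM, which overlapped (−0.66 ± 0.52, adjusted p = 0.48).

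DBA/2J mice on CD fell far apart in Pnpla3. The 6 values were 1.64, 1.64, 7.45, 11.3, 79.2, and 99.4 CPM, and the 7 mice on WD lay inside this range, between 3.55 and 11.9 CPM. The log2 fold change was −0.48 ± 0.49 (adjusted p = 0.57), but −1.98 with edgeR (adjusted p = 0.00092) and −1.97 with DESeq2 (adjusted p = 0.00057), which compare means of counts. The cohorts went opposite ways, with a difference of 1.29 on the log2 scale in cohort 4 and of −2.24 in cohort 5, which held both mice with the highest values. Log2 fold changes were below 0 in all 7 strains for Pnpla3 and for Tm6sf2, as for 9.63% of all genes.

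The promoters of Pnpla3 and Gckr are shown because both genes were lower on WD in PWK/PhJ and because their levels followed each other over the mice, as described further on. The sequences are from RefSeq (GRCm38.p6), cover 250 bases before and 50 bases after the start site on the strand of the gene, and have matches to CCAAT, read on either strand, in capitals. They were found for 5 of the 8 genes (Pnpla3, Mboat7, Hsd17b13, Gckr, and Mertk).
Pnpla3, chr15:84167566-84167865, plus strand: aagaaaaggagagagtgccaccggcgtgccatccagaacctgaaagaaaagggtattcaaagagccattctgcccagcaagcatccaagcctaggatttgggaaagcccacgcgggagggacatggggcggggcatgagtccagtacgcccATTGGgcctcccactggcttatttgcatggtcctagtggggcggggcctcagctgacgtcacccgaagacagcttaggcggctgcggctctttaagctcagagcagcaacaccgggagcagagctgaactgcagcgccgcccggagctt
Gckr, chr5:31297313-31297612, plus strand: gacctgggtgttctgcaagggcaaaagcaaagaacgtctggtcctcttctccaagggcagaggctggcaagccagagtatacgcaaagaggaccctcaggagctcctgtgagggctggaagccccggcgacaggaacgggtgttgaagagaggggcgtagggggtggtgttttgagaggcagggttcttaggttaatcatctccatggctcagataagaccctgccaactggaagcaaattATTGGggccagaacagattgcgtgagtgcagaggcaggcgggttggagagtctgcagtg
Each has 1 match to CCAAT on the minus strand, a word found in 37.4% of the 32851 mouse promoters of the same length. Neither holds TCACNCCAC (1.24% of promoters), CACGTG (7.15%), or TATAAA (13.6%). The other 3 promoters held none of these 4 motifs, and a match or its absence in this window says nothing about the binding of a factor.

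Lipogenic genes, from a list of 11 regulators and enzymes, gave 2 genes higher and 6 lower in the mean diet comparison, with a median log2 fold change of −0.41 beside 0.01 over all genes. The enzymes of fatty acid synthesis Acly (−1.23 ± 0.11, adjusted p = 2.9e-17), Fasn (−1.13 ± 0.11, adjusted p = 4.7e-14), and Elovl6 (−0.86 ± 0.09, adjusted p = 4.2e-13) were lower on WD. Numbers of the 11 called as higher and as lower differed by strain. They were 1 and 8 in PWK/PhJ (29.6% of all genes called), 1 and 7 in 129S1/SvImJ (28.0%), 1 and 7 in WSB/EiJ (8.94%), and 2 and 5 in C57BL/6J (26.2%). A/J had 1 and 1 (9.03%), CAST/EiJ 3 and 2 (19.5%), and DBA/2J 2 and 0 (18.0%). Srebf1, which encodes the insulin-responsive lipogenic transcription factor SREBP-1, was higher (0.59 ± 0.09 by the mean over strains, adjusted p = 1.4e-08) and was lower only in 129S1/SvImJ (−0.69, adjusted p = 0.019). Mlxipl, which encodes the carbohydrate-responsive factor ChREBP, did not pass in the mean (0.02, adjusted p = 0.79), was lower in PWK/PhJ (−0.42, adjusted p = 0.021), and was higher in CAST/EiJ (0.73, adjusted p = 5.0e-05). Genes of lipid droplet lipolysis, 9 in the list, gave 3 higher and 4 lower. Among them Pnpla2, the main triglyceride lipase and a relative of Pnpla3, fell in CAST/EiJ (−0.76, adjusted p = 0.00015) and in the mean (−0.19, adjusted p = 0.0065). Cidec, a droplet fusion protein, was higher in the mean (0.97, adjusted p = 0.00035), in C57BL/6J (3.17, adjusted p = 8.3e-10), and in PWK/PhJ (2.22, adjusted p = 0.0028), but lower in CAST/EiJ (−1.76, adjusted p = 0.0019). G0s2, an inhibitor of Pnpla2, was lower in the mean (−0.59, adjusted p = 0.0051).

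Hsd17b13, hydroxysteroid 17-beta dehydrogenase 13, encodes a lipid droplet enzyme made mainly by hepatocytes. It lies at chr5:103955440-103977410 on the minus strand. Its level differed more between strains than between diets. WSB/EiJ mice on CD had 984, 1157, and 1522 CPM (lowest, median, and highest) and on WD 1050, 1156, and 1258 CPM. DBA/2J, the strain with the lowest mean, had 491, 558, and 579 CPM on CD and 542, 600, and 677 CPM on WD. All 6 WSB/EiJ mice on CD were above all 6 DBA/2J mice, and the diets overlapped in all 7 strains. No diet effect passed in any strain, with log2 fold changes from −0.24 to 0.13. The value of CAST/EiJ was −0.24 ± 0.10 (adjusted p = 0.067), from 614, 768, and 933 CPM on CD to 535, 685, and 736 CPM on WD, and it passed with DESeq2 (adjusted p = 0.042). The difference between the CAST/EiJ effect and the mean of the other 6 strains was −0.31 ± 0.11 (adjusted p = 0.035). It did not pass with cohort within strain as a term or without a filter on counts. Hsd17b11, a paralog of Hsd17b13 that also sits on lipid droplets, was higher on WD in the mean (0.48 ± 0.05, adjusted p = 1.1e-12) and passed in 5 of the 7 strains.

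Tm6sf2, transmembrane 6 superfamily member 2, encodes a membrane protein of the endoplasmic reticulum that is needed for full lipidation of very-low-density lipoprotein (VLDL). It lies at chr8:70072924-70080066 on the plus strand. It was lower on WD in 4 strains. In PWK/PhJ the values were 24.9, 31.6, and 41.4 CPM on CD and 10.8, 12.0, and 16.3 CPM on WD, and in C57BL/6J they were 36.4, 42.3, and 47.1 CPM on CD and 20.2, 26.0, and 32.8 CPM on WD. In 129S1/SvImJ they were 24.1, 28.4, and 29.9 CPM on CD and 16.1, 16.9, and 22.3 CPM on WD. The diets did not overlap in any of these 3 strains. Tm6sf2 fell 2.54-fold in PWK/PhJ (−1.34 ± 0.14, adjusted p = 5.8e-13), 1.64-fold in C57BL/6J (−0.71 ± 0.11, adjusted p = 9.7e-07), and 1.55-fold in 129S1/SvImJ (−0.63 ± 0.13, adjusted p = 0.00016). In WSB/EiJ the ranges overlapped, with 20.4, 38.6, and 47.9 CPM on CD and 19.9, 24.3, and 42.6 CPM on WD (−0.46 ± 0.14, adjusted p = 0.019). The WSB/EiJ value did not pass without the mice of RIN under 8 (adjusted p = 0.091), without a filter on counts (adjusted p = 0.055), or in a separate fit of the strain (adjusted p = 0.19).

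The fall of Tm6sf2 in PWK/PhJ exceeded the mean of the other 6 strains by −0.92 ± 0.15 on the log2 scale (adjusted p = 2.8e-06). In that comparison 4 of the 8 genes passed for PWK/PhJ, Tm6sf2, Gckr, Mboat7, and Trib1, as did 16.3% of all genes. The effect in CAST/EiJ was weaker than in the others, by 0.39 ± 0.13 (adjusted p = 0.032), and with RIN as a covariate this difference did not pass. CAST/EiJ had 29.8, 41.1, and 49.7 CPM on CD and 27.3, 34.7, and 42.9 CPM on WD (−0.22 ± 0.12, adjusted p = 0.20). Tm6sf2 was highest in A/J, where the 5 mice on CD had 60.4, 58.2, 70.6, 58.9, and 48.2 CPM and those on WD 44.2, 52.0, and 55.4 CPM, and the diet effect did not pass (−0.21 ± 0.14, adjusted p = 0.38). Summed levels of the 10 hepatocyte markers moved in the same direction and fell in PWK/PhJ from 117860 to 142820 CPM on CD to 73466 to 102950 CPM on WD, and in A/J from 187390 to 221300 CPM to 138630 to 162840 CPM. CAST/EiJ sums fell from 113520 to 137510 CPM to 76223 to 100470 CPM. Those of 129S1/SvImJ overlapped, at 108260 to 140330 CPM and 89014 to 111960 CPM. Of the 10 markers, 5 were called as lower in PWK/PhJ (29.6% of all genes called), 5 in A/J (9.03%), 5 in 129S1/SvImJ (28.0%), and 3 in CAST/EiJ (19.5%). None was called as higher in these strains. The part of these markers in the fall of Tm6sf2 was not tested. In bulk liver, fewer cells of a type and less RNA per cell cannot be told apart.

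Of 10 genes of VLDL assembly, 2 were higher and 3 lower in the mean diet comparison, with a median of −0.02. Mttp, the triglyceride transfer protein that loads lipid on apolipoprotein B, was lower (−0.37 ± 0.04, adjusted p = 4.2e-14), as was Sar1b, a GTPase of vesicle export (−0.17, adjusted p = 0.00035). Tm6sf1, the paralog of Tm6sf2, was higher (0.63 ± 0.07, adjusted p = 1.0e-11).

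Mboat7, membrane-bound O-acyltransferase 7, transfers arachidonic acid to lysophosphatidylinositol. It lies at chr7:3677789-3693523 on the minus strand, and 277 bases of its exons, 3.32%, overlap those of Tsen34 on the opposite strand. Because the sources used here do not state whether counting separated the strands, reads of these bases cannot be assigned to either gene. Mboat7 was the least variable of the 8 genes, with a 1.53-fold range of strain means on CD. PWK/PhJ had 33.2, 35.1, and 38.1 CPM on CD and 27.0, 30.9, and 33.3 CPM on WD, so that 6 of 7 mice on WD lay below every mouse on CD, and the log2 fold change was −0.20 ± 0.05 (adjusted p = 0.0020), a 1.15-fold fall. 129S1/SvImJ had 39.8, 43.5, and 46.1 CPM on CD and 41.5, 46.0, and 49.3 CPM on WD and was the strain whose value lay above 0 (0.09 ± 0.05, adjusted p = 0.21). Set against the average of the remaining 6 strains, its effect was shifted by 0.18 ± 0.06 (adjusted p = 0.037). That of PWK/PhJ was shifted by −0.15 ± 0.06 (adjusted p = 0.048), a call that was lost in 8 of 15 alternatives. In C57BL/6J the effect was −0.11 ± 0.05 (adjusted p = 0.073), and without replicate 2 on CD, whose 38.8 CPM was the lowest of its group, it passed (−0.15, adjusted p = 0.0063). Of 10 other phospholipid acyltransferases, 5 were higher in the mean diet comparison and the others did not pass. Lpcat2, which acts on lysophosphatidylcholine, was higher by 0.63 ± 0.10 (adjusted p = 2.2e-07).

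Gckr encodes a regulatory protein of hepatic glucose use that acts in the hepatocyte nucleus. It lies at chr5:31297443-31327314 on the plus strand. It was lower on WD in PWK/PhJ, where the mice had 253, 279, and 295 CPM on CD and 181, 195, and 218 CPM on WD, with no overlap (−0.49 ± 0.10, adjusted p = 0.00010). Together with Pnpla3 and Tm6sf2, Gckr was 1 of 3 genes without overlap in PWK/PhJ, as 12.6% of all genes were. C57BL/6J had 2 such genes, Pnpla3 and Tm6sf2 (1.78% of all genes), and 129S1/SvImJ 1, Tm6sf2 (16.4%). Against the average of the remaining 6 strains, the Gckr effect in PWK/PhJ was shifted by −0.42 ± 0.11 (adjusted p = 0.0050). In the other strains log2 fold changes ranged from −0.17 in 129S1/SvImJ to 0.08 in CAST/EiJ, and none passed. Levels on CD were low in CAST/EiJ, with 120, 157, and 221 CPM, and in C57BL/6J, with 130, 171, and 204 CPM. G6pc, the last step of glucose release, had a log2 fold change of −1.65 ± 0.15 in the mean diet comparison (adjusted p = 1.3e-16).

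Ppp1r3b encodes the hepatic glycogen-targeting subunit of protein phosphatase 1, which directs the enzyme to glycogen and activates glycogen synthase. It lies at chr8:35375739-35388139 on the plus strand. 129S1/SvImJ had the highest level on CD, with 199, 319, and 494 CPM, and dropped on WD to 54.8, 82.6, and 203 CPM. Of its 6 mice on WD, 5 lay below every mouse on CD, and the fold change was 3.41 (−1.77 ± 0.30, adjusted p = 2.7e-06). It fell in both cohorts of this strain, by 1.32 and by 2.16 on the log2 scale. In PWK/PhJ, 196, 278, and 437 CPM on CD stood against 127, 146, and 245 CPM on WD (−0.75 ± 0.30, adjusted p = 0.048), with 6 of 7 mice below every mouse on CD, and this call was lost in 6 of 16 alternatives (adjusted p up to 0.062). CAST/EiJ had 30.0, 73.9, and 160 CPM on CD and 50.6, 94.8, and 226 CPM on WD, and its value lay above 0 (0.26 ± 0.27, adjusted p = 0.56).

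The Ppp1r3b effect in 129S1/SvImJ was stronger than the mean of the other 6 strains by −1.47 ± 0.32 (adjusted p = 0.0021). With Mboat7, this made 2 of the 8 genes for 129S1/SvImJ, beside 6.28% of all genes. The effect in CAST/EiJ differed the other way, by 0.90 ± 0.29 (adjusted p = 0.027), and this did not pass with edgeR or without a filter on counts. CAST/EiJ had 4 of the 8 genes in this comparison, Tm6sf2, Hsd17b13, Trib1, and Ppp1r3b, where 14.5% of all genes passed. C57BL/6J had 1, Trib1 (4.69% of all genes). DBA/2J (7.77%), A/J (0.466%), and WSB/EiJ (0.947%) had 0 with limma-voom and with edgeR and DESeq2, and at an unadjusted p below 0.05 limma-voom had 2, 1, and 0 in these strains.

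Among 15 genes of glycogen metabolism, 5 were higher and 6 lower in the mean diet comparison. Ppp1r3c, another glycogen-targeting subunit, was lower in the mean (−1.02 ± 0.15, adjusted p = 9.5e-09) and passed in C57BL/6J, A/J, 129S1/SvImJ, and PWK/PhJ, whereas in CAST/EiJ its value was 1.01 (adjusted p = 0.056). Ppp1r3g, a further glycogen-targeting subunit, was lower in the mean (−1.93 ± 0.48, adjusted p = 0.00044). In CAST/EiJ it went from 1.89 to 257 CPM on CD to 0.381 to 7.99 CPM on WD (−4.82, adjusted p = 0.00087). PWK/PhJ had 2.94 to 6.76 CPM on CD and 0.343 to 0.973 CPM on WD. Only in C57BL/6J (3.28 and 3.90 CPM) and WSB/EiJ (9.21 and 13.7 CPM) was the group mean higher on WD than on CD. The diets overlapped in both strains. C57BL/6J mice had 0.722 to 5.19 CPM on CD and 0.661 to 10.7 CPM on WD. WSB/EiJ mice had 1.74 to 17.3 CPM on CD and 0.276 to 65.8 CPM on WD (SD 25.9). Gys2, hepatic glycogen synthase, was lower in CAST/EiJ (−0.82, adjusted p = 0.00024) and in the mean (−0.32, adjusted p = 7.2e-05). Pygl, hepatic glycogen phosphorylase, was lower in PWK/PhJ (−0.58, adjusted p = 0.00026) and 129S1/SvImJ (−0.46, adjusted p = 0.0038) and higher in CAST/EiJ (0.42, adjusted p = 0.0042).

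Trib1, tribbles pseudokinase 1, lies at chr15:59648350-59657099 on the plus strand and moved in opposite directions in different strains. C57BL/6J had 24.6, 42.2, and 57.9 CPM on CD and 46.9, 68.8, and 87.2 CPM on WD, with 6 of 8 mice on WD above every mouse on CD (0.69 ± 0.17, adjusted p = 0.00083). PWK/PhJ had 31.0, 42.7, and 54.4 CPM on CD and 52.6, 60.6, and 95.2 CPM on WD, with 6 of 7 mice above every mouse on CD (0.69 ± 0.19, adjusted p = 0.0025). CAST/EiJ had 57.3, 127, and 161 CPM on CD and 38.8, 66.6, and 98.3 CPM on WD, and its groups overlapped (−0.67 ± 0.17, adjusted p = 0.0026). Differences from the mean of the other 6 strains were 0.74 ± 0.18 in C57BL/6J (adjusted p = 0.0084), 0.74 ± 0.20 in PWK/PhJ (adjusted p = 0.0061), and −0.85 ± 0.19 in CAST/EiJ (adjusted p = 0.00083). WSB/EiJ had high levels on both diets, 74.1, 120, and 145 CPM on CD and 74.1, 116, and 144 CPM on WD, with a log2 fold change of 0.00 ± 0.19.

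Levels of Trib1 in CAST/EiJ differed between cohorts. The mean on CD was 57.3 CPM in cohort 1 (1 mouse), 97.5 CPM in cohort 3 (2 mice), and 129 CPM in cohort 4 (4 mice), and the log2 differences of WD against CD were −0.25, −0.53, and −0.54. These cohorts held 3, 2, and 3 mice on WD. Each cohort difference was smaller in size than the −0.67 of the main fit, which had no term for cohort. In a separate fit of the strain the adjusted p was 0.084. In C57BL/6J the cohort differences were 0.77 and 0.80, and in PWK/PhJ 0.70 and 0.62. Of 5 genes around the Tribbles family, 1 passed in the mean diet comparison and was lower. This was Cebpa, which encodes the transcription factor that Trib1 sends to degradation and which was lower in DBA/2J (−0.79, adjusted p = 2.6e-07), 129S1/SvImJ (−0.42, adjusted p = 0.0058), and WSB/EiJ (−0.44, adjusted p = 0.013). In the 3 strains in which Trib1 changed, Cebpa had values of 0.02 in C57BL/6J, −0.12 in PWK/PhJ, and −0.21 in CAST/EiJ, and none passed. Trib3, a stress-induced relative of Trib1, passed in no strain (mean −0.23, adjusted p = 0.12).

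Mertk lies at chr2:128698956-128802894 on the plus strand and varied with strain more than with diet. PWK/PhJ mice had 16.9, 21.0, and 25.1 CPM on CD and 22.9, 24.5, and 26.3 CPM on WD, which overlapped, and the log2 fold change of 0.23 ± 0.09 passed (adjusted p = 0.036). Without the mice of RIN under 8, which include 1 PWK/PhJ mouse on WD, or without a filter on counts it did not pass (adjusted p up to 0.087). The other 6 strains had log2 fold changes from −0.0026 in DBA/2J to 0.10 in A/J. Beside the PWK/PhJ value, the summed level of 10 Kupffer cell markers was 50.1 to 361 CPM on CD and 270 to 425 CPM on WD, and that of 10 markers of recruited macrophages was 76.7 to 161 CPM on CD and 252 to 711 CPM on WD. Spp1, which is also a cholangiocyte marker, made up most of the second sum, and the other 9 markers summed to 16.2 to 32.9 CPM on CD and 102 to 210 CPM on WD. Of the 5 cholangiocyte markers, 4 were higher on WD in PWK/PhJ, and without Spp1 their sum was 5.38 to 8.76 CPM on CD and 8.94 to 23.4 CPM on WD. None of these markers was at 0 in either group, and their part in the Mertk value was not tested. In 129S1/SvImJ the sums of the 10 Kupffer cell and 10 recruited macrophage markers went from 205 to 332 CPM up to 347 to 517 CPM and from 68.6 to 95.1 CPM up to 184 to 317 CPM, with a Mertk log2 fold change of 0.02 ± 0.08.

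The 4 other genes of the TAM system, in which Tyro3, Axl, and Mertk are the receptors and Gas6 and Pros1 the ligands, were all higher on WD in the mean diet comparison, with a median of 0.44. Axl rose by 0.59 ± 0.06 (adjusted p = 6.3e-13). Its mean in PWK/PhJ was 11.1 CPM on CD (SD 3.92) and 24.4 CPM on WD (SD 3.94), and in 129S1/SvImJ 19.8 CPM on CD (SD 3.06) and 41.6 CPM on WD (SD 5.14). DBA/2J had an Axl mean of 25.7 CPM on CD (SD 2.87) and 26.6 CPM on WD (SD 4.79). Gas6 rose by 0.62 ± 0.08 (adjusted p = 5.9e-10), Tyro3 by 0.30 ± 0.10 (adjusted p = 0.013), and Pros1 by 0.18 (adjusted p = 2.1e-05). Tyro3 was low, with group means from 0.176 CPM (WSB/EiJ on CD) to 0.664 CPM (129S1/SvImJ on WD). Pros1 means went from 59.9 to 53.1 CPM in DBA/2J and from 56.1 to 49.3 CPM in CAST/EiJ, and were higher on WD in the other strains. The Kupffer cell markers Cd5l (0.64), Adgre1 (0.53), and Csf1r (0.38) were higher in the same comparison, as 5 of the 10 markers of the list were, while the other 5 did not pass. Of the recruited macrophage markers, 9 of 10 were higher and the other did not pass.

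On CD, all 8 genes differed between strains by the F test, as did 93.7% of all genes, with adjusted p from 6.9e-22 for Mboat7 to 2.6e-09 for Ppp1r3b. Against C57BL/6J, 7 of the 8 passed in PWK/PhJ (58.0% of all genes), 7 in 129S1/SvImJ (48.9%), 6 in CAST/EiJ (65.9%), 6 in WSB/EiJ (53.8%), 5 in A/J (38.4%), and 3 in DBA/2J (39.7%). These comparisons share the C57BL/6J mice. Without C57BL/6J replicate 2 on CD, the number for A/J was 3 and that for WSB/EiJ 4, as Mboat7 and Mertk no longer passed in either. Without the mice of RIN under 8, the WSB/EiJ comparison lost Mboat7 (0.10, adjusted p = 0.12) and gained Tm6sf2 (−0.32, adjusted p = 0.037). Pnpla3 was 8.94-fold higher in PWK/PhJ than in C57BL/6J (3.16 ± 0.40, adjusted p = 7.3e-11) and lower in WSB/EiJ (−3.51 ± 0.90, adjusted p = 0.00060), CAST/EiJ (−2.04 ± 0.63, adjusted p = 0.0034), and 129S1/SvImJ (−1.58 ± 0.55, adjusted p = 0.014). Hsd17b13 was 2.05-fold higher in WSB/EiJ (1.03 ± 0.10, adjusted p = 2.2e-14), and Trib1 was 2.63-fold higher in WSB/EiJ (1.39 ± 0.18, adjusted p = 2.9e-10) and 2.47-fold higher in CAST/EiJ (1.31 ± 0.17, adjusted p = 2.8e-10). Ppp1r3b was 2.12-fold higher in 129S1/SvImJ (1.08 ± 0.28, adjusted p = 0.00082). With cohort as a term across strains, which leaves out WSB/EiJ, the number called against C57BL/6J was 3 in 129S1/SvImJ and 3 in A/J, and Ppp1r3b (0.54, adjusted p = 0.26) was among the genes no longer called in 129S1/SvImJ.

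**Figure D3:**
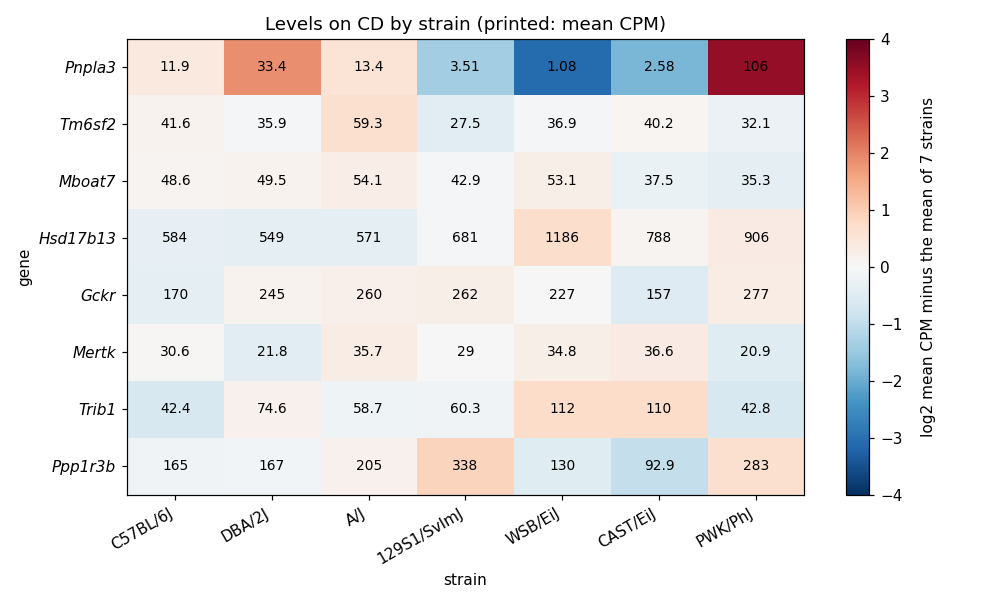
Mean CPM on CD (printed in each cell) by gene (y axis) and strain (x axis), with the color giving the log2 mean CPM minus the mean of the 7 strains for that gene. Pnpla3 runs from 1.08 CPM in WSB/EiJ to 106 CPM in PWK/PhJ, and Mboat7 from 35.3 to 54.1 CPM.

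Ordered by mean level on CD, most neighboring strains could not be separated. Of 48 neighboring pairs over the 8 genes, 12 passed, beside 48.0% of all tests of genes over the 21 pairs of strains, which include distant strains as well as neighbors. For Pnpla3 the order from the lowest was WSB/EiJ, CAST/EiJ, 129S1/SvImJ, C57BL/6J, A/J, DBA/2J, and PWK/PhJ, and the steps from 129S1/SvImJ to C57BL/6J and from DBA/2J to PWK/PhJ passed. The mean of DBA/2J rests on its 2 mice with the highest values, and the fitted log2 difference of DBA/2J against A/J was −0.19 (adjusted p = 0.84). For Hsd17b13 the order was DBA/2J, A/J, C57BL/6J, 129S1/SvImJ, CAST/EiJ, PWK/PhJ, and WSB/EiJ, and the steps from C57BL/6J to 129S1/SvImJ (adjusted p = 0.035) and from PWK/PhJ to WSB/EiJ (adjusted p = 0.0022) passed. The first of these was lost in 6 of 15 alternatives, among them edgeR (adjusted p = 0.054), DESeq2 (adjusted p = 0.077), and cohort across strains (adjusted p = 0.13). For Tm6sf2 the order was 129S1/SvImJ, PWK/PhJ, DBA/2J, WSB/EiJ, CAST/EiJ, C57BL/6J, and A/J, and the step to A/J passed (0.51 ± 0.13, adjusted p = 0.00088). For Mboat7 the order was PWK/PhJ, CAST/EiJ, 129S1/SvImJ, C57BL/6J, DBA/2J, WSB/EiJ, and A/J, with a step from CAST/EiJ to 129S1/SvImJ (adjusted p = 0.00056) and from there to C57BL/6J (adjusted p = 0.0016), the second of which did not pass with cohort as a term across strains (adjusted p = 0.11).

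For Gckr the order was CAST/EiJ, C57BL/6J, WSB/EiJ, DBA/2J, A/J, 129S1/SvImJ, and PWK/PhJ, and the step from C57BL/6J to WSB/EiJ passed (0.42 ± 0.10, adjusted p = 0.00023). For Ppp1r3b no step passed in the order CAST/EiJ, WSB/EiJ, C57BL/6J, DBA/2J, A/J, PWK/PhJ, and 129S1/SvImJ, although 12 of its 21 pairs of strains did. Trib1 ran from C57BL/6J through PWK/PhJ, A/J, 129S1/SvImJ, DBA/2J, and CAST/EiJ to WSB/EiJ, with steps from PWK/PhJ to A/J (adjusted p = 0.044) and from DBA/2J to CAST/EiJ (adjusted p = 0.028). Mertk ran from PWK/PhJ through DBA/2J, 129S1/SvImJ, C57BL/6J, WSB/EiJ, and A/J to CAST/EiJ, with steps from DBA/2J to 129S1/SvImJ (0.41 ± 0.09, adjusted p = 6.6e-05) and from C57BL/6J to WSB/EiJ (adjusted p = 0.033). The second step was lost in 5 of 14 alternatives, among them DESeq2 (adjusted p = 0.066) and leaving out C57BL/6J replicate 2 on CD (adjusted p = 0.11).

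Within cohorts, the diet differences of the called genes kept their direction. Each of the 14 combinations of gene and strain that passed had the same sign in every cohort of that strain. The calls rest on these same mice, so agreement in sign was likely in advance and is no independent support. Some cohort values rest on few mice, such as 1 CAST/EiJ mouse on CD in cohort 1 and 2 WSB/EiJ mice on each diet in cohort 7. Over the 15 combinations of strain and cohort, Tm6sf2 was lower on WD in 15, Mboat7 in 14, Pnpla3 in 13, Ppp1r3b in 12, Gckr in 10, Trib1 in 9, Mertk in 6, and Hsd17b13 in 5.

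Levels of the 8 genes were related to each other and to other genes over the 93 mice after the mean of each strain was removed. These correlations describe the mice, which still differ in diet and cohort. The closest pair was Pnpla3 and Tm6sf2 (Pearson's r = 0.57, Spearman's rho = 0.63), followed by Pnpla3 and Gckr (r = 0.51, rho = 0.51) and Tm6sf2 and Gckr (r = 0.50, rho = 0.51). With the mean of each strain and diet removed, r was 0.28, 0.46, and 0.26. The largest negative value was that of Tm6sf2 and Trib1 (r = −0.32, rho = −0.28), which became −0.07.

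Among all tested genes with a symbol, Pnpla3 was most like Acly (r = 0.83, rho = 0.85), Fasn (r = 0.80, rho = 0.77), and Sc5d, a sterol desaturase (r = 0.80, rho = 0.84), and r was 0.80, 0.78, and 0.71 within groups of strain and diet. Tm6sf2 was most like Pemt, which makes phosphatidylcholine by methylation (r = 0.84, rho = 0.83), Atp2b2, a calcium pump (r = 0.83, rho = 0.83), and Rdh16f2 (r = 0.82, rho = 0.82), and within groups r was 0.51, 0.57, and 0.62. Gckr was most like Khk, the ketohexokinase of fructose use (r = 0.79, rho = 0.81), Nipsnap1 (r = 0.77, rho = 0.78), and Pdk1, a pyruvate dehydrogenase kinase (r = 0.75, rho = 0.73). Hsd17b13 was most like Nnt, the mitochondrial transhydrogenase (r = 0.71, rho = 0.71), Otud7b (r = 0.70, rho = 0.61), and Nap1l1 (r = 0.67, rho = 0.62). Trib1 was most like Zc3h12a, an RNase of inflammatory transcripts (r = 0.69, rho = 0.65), Btg2 (r = 0.67, rho = 0.66), and the immediate early gene Jun (r = 0.67, rho = 0.64). The likest genes of Ppp1r3b were Tob2 (r = 0.68, rho = 0.63), Zfp276 (r = 0.67, rho = 0.59), and Mtfp1 (r = 0.67, rho = 0.63). Those of Mboat7 were Gaa, the lysosomal glucosidase of glycogen (r = 0.64, rho = 0.61), Lmf2 (r = 0.62, rho = 0.60), and Cpn1 (r = 0.62, rho = 0.60), and those of Mertk were F8, coagulation factor VIII (r = 0.67, rho = 0.57), Adgre4 (r = 0.58, rho = 0.41), and Nxpe4 (r = 0.58, rho = 0.54).

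**Figure D4:**
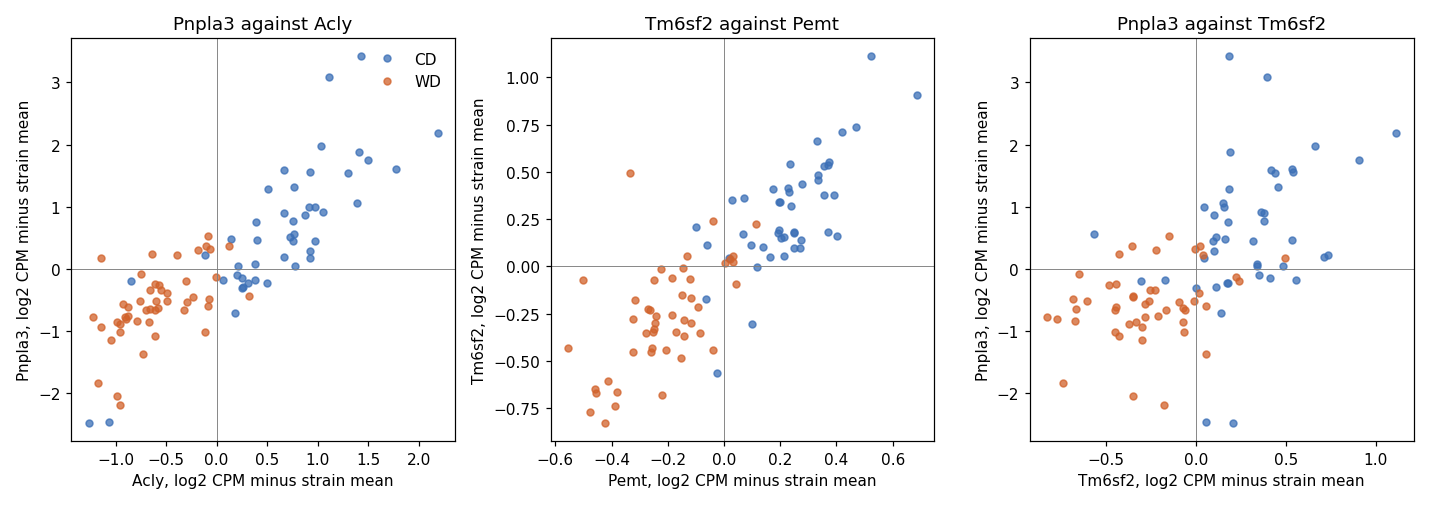
Log2 CPM minus the strain mean in each of the 93 mice, for Pnpla3 against Acly, Tm6sf2 against Pemt, and Pnpla3 against Tm6sf2 (x and y axes as labelled), with CD in blue and WD in orange. Pearson's r is 0.83, 0.84, and 0.57, and within groups of strain and diet it is 0.80, 0.51, and 0.28. In the Tm6sf2 and Pemt panel, mice on CD lie mostly toward the upper right and mice on WD mostly toward the lower left.

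Another 20 genes at loci tied to human fatty liver disease moved in both directions, with 6 higher and 8 lower in the mean diet comparison and a median log2 fold change of 0.03. Of all genes, 51.6% were called there, and 24.5% were called as lower on WD. In this comparison Pparg, the adipogenic nuclear receptor, rose by 2.01 ± 0.21 (adjusted p = 1.6e-13), Il1rn, the interleukin-1 receptor antagonist, by 0.49 ± 0.11 (adjusted p = 0.00013), and Lyplal1, a lysophospholipase-like enzyme, by 0.40 ± 0.03 (adjusted p = 2.2e-17). Il1rn was higher in 129S1/SvImJ (2.38, adjusted p = 1.9e-08), C57BL/6J, and PWK/PhJ and lower in CAST/EiJ (−1.53, adjusted p = 0.00052). The number called ranged from 4 of 20 in A/J (9.03% of all genes) and in WSB/EiJ (8.94%) to 11 of 20 in 129S1/SvImJ (28.0%). In PWK/PhJ it was 8 of 20, 2 higher and 6 lower, where 29.6% of all genes and 7 of the 8 genes described above passed.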

How the data were processed

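Liver RNA-seq of 93 male mice was analysed as 14 groups of strain and diet taken from the labels. The deposited values are counts, that is, unnormalized read numbers per gene and mouse, from libraries mapped with STAR 2.7.1a to GRCm38. The annotation release and strand setting are not given in the sources used here. Symbols, exon lengths, and coordinates came from GENCODE M21.

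The filterByExpr function of edgeR 4.0.16 (R 4.3.3; minimum count 10) retained 19110 genes. Counts were scaled with TMM, and voom of limma 3.58.1 was fitted with a mean for each group. P-values were adjusted by Benjamini–Hochberg over all genes within each comparison, and calls had an adjusted p below 0.05. Per-mouse log2 CPM used a prior count of 2. In a test on simulated data, the fit recovered most of the changes put in and called few unchanged genes. The test was set to halt on a poor result, so only this outcome could be reported. Each simulated gene had the same spread in all groups and no strain difference in level, so such differences were not covered.

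The 8 genes and all lists were chosen with earlier results of these data known. Named genes were the 8 members, 15 partners, up to 3 genes per list with the largest mean diet effect among those called, and the 3 most correlated genes of each member. Some of these genes are not reported here. Labels do not say that mice shared a litter, and p-values measure the spread between these mice. DESeq2 1.42.0 and other settings served as alternatives, 2 of them, and the marker sums without Spp1, chosen after seeing the data.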

Additional observations from a re-analysis of the deposited data

Results flagged for a closer look

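In 8 of the 112 combinations of gene and group, a mouse lay apart from the others of its group by Dixon's test, which chance flags in about 1 of 20 groups. The highest values apart were Tm6sf2 at 42.6 CPM in a WSB/EiJ mouse on WD (next 26.1 CPM), Gckr at 221 CPM in a CAST/EiJ mouse on CD (next 162 CPM), Ppp1r3b at 317 CPM in a C57BL/6J mouse on CD (next 186 CPM), and Ppp1r3b at 226 CPM in a CAST/EiJ mouse on WD (next 107 CPM). The lowest were Mboat7 at 38.8 CPM in C57BL/6J replicate 2 on CD (next 48.3 CPM), Gckr at 119 CPM in a C57BL/6J mouse on WD (next 163 CPM), Mertk at 31.4 CPM in an A/J mouse on WD (next 38.1 CPM), and Mertk at 16.3 CPM in a DBA/2J mouse on WD (next 21.0 CPM).

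Diet effects differed between strains for 5 genes by limma's F test, with adjusted p of 0.024 for Gckr, 0.046 for Mboat7, 0.0019 for Ppp1r3b, 3.5e-06 for Tm6sf2, and 2.8e-05 for Trib1.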

How the results depend on the processing

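Of 2547 values of log2 fold change computed for the 8 genes under alternative settings, no called value changed sign, 64 lost and 29 gained a call, and 342 of 361 counts of called genes stayed within 1.5 times the main count. For the diet effect, the number called in CAST/EiJ was 3 with DESeq2 and 2 with edgeR. In DBA/2J it was 1 with DESeq2, edgeR, or sample quality weights and 2 with a separate fit of the strain. In WSB/EiJ it was 0 without a filter on counts, with a separate fit, or without the mice of RIN under 8. For a strain against the mean of the others, it was 1 in 129S1/SvImJ and 1 in CAST/EiJ without a filter and 1 in A/J with quality weights. Against C57BL/6J on CD, it was 3 in 129S1/SvImJ and 3 in A/J with cohort as a term across strains, 2 in A/J with upper-quartile normalization, and 3 in WSB/EiJ with at least 10 counts in every mouse, a filter that removes Pnpla3. Leaving out each A/J mouse on CD in turn, or C57BL/6J replicate 2 on CD, gave 3 to 5 in A/J, with 3 without A/J replicate 2, without A/J replicate 4, or without the C57BL/6J mouse. The causes were not tested. No paired analysis was possible because the labels carry no replicate numbers that link mice across groups. DESeq2 gave no F tests. Pnpla3 had few reads per mouse in WSB/EiJ (4 to 100), CAST/EiJ (28 to 171), and 129S1/SvImJ (60 to 232). The main fit shares its estimate of the spread of a gene over all groups. For Pnpla3 the SD ranged from 23.2% to 131% of the group mean. The part of either in the calls was not tested.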
